A study of Mus musculus with 2 samples.

Results

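The genes described here are 7 genes of coagulation and its control, chosen by name: Vwf, Thbd, Procr, Tfpi, F3, F8 and Plat. They are 7 of the 31055 genes counted. Their mRNA was measured in sorted tumor endothelial cells by droplet-based single-cell RNA sequencing, which tags every transcript with a unique molecular identifier (UMI) so that copies of it count once. At 6 weeks of age, wild-type female mice of the C57BL6 strain were given 100000 tumor cells orthotopically, and tumors were digested 10 days later. PyMT cells come from a mammary cancer and KPC cells from a pancreatic cancer. There was 1 library per tumor model, and the number of mice behind each is not stated. Since the cells of a library do not replicate the tumor model, these data allow no test and no p-value, and every interval covers counting error only. Tumor model, organ, digestion (a higher collagenase dose for KPC) and library cannot be told apart.

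The endothelium keeps blood fluid and seals it when a vessel is cut. Von Willebrand factor (Vwf) is stored in endothelial Weibel-Palade bodies, tethers platelets and carries factor VIII (F8), while tissue factor (F3) starts the clotting cascade and is held by cells outside the vessel lumen. Thrombomodulin (Thbd) turns thrombin into an activator of the anticoagulant protein C, which the endothelial protein C receptor (Procr) binds and presents. Tissue factor pathway inhibitor (Tfpi) blocks the start of the cascade, and tissue plasminogen activator (Plat) starts the breakdown of fibrin.

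Positions are those of GRCm38 (mm10). Vwf lies on chromosome 6 from 125546774 to 125686679 (forward strand) and Plat on chromosome 8 from 22757727 to 22782844 (forward). Thbd, Procr and Tfpi share chromosome 2, with Thbd from 148404466 to 148408188 (reverse, 1 exon), Procr from 155751117 to 155755471 (forward) and Tfpi from 84432855 to 84476775 (reverse). F3 lies on chromosome 3 from 121723537 to 121735048 (forward). F8 lies on chromosome X from 75172715 to 75382615 (reverse), and its annotated 5′ end overlaps Fundc2 on the opposite strand.

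RefSeq promoter windows of GRCm38.p6, from 250 bases before to 50 bases after the start site, were matched for 4 of the 7 genes (Procr, Tfpi, F3 and F8). The windows of Procr, which was high in venule cells, and of F3, which was high in KPC cells of the tumor class, are shown on the strand of the gene. Capitals mark matches on either strand to the AP-1 motif TGANTCA and to the nuclear receptor half-site AGGTCA.
Procr, chr2:155750967-155751266, forward strand: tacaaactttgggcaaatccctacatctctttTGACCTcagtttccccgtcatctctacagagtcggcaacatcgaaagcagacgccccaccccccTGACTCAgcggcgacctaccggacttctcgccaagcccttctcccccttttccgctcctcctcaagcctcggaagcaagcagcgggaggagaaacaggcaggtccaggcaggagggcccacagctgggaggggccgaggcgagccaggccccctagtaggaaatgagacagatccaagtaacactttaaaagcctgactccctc
F3, chr3:121723287-121723586, forward strand: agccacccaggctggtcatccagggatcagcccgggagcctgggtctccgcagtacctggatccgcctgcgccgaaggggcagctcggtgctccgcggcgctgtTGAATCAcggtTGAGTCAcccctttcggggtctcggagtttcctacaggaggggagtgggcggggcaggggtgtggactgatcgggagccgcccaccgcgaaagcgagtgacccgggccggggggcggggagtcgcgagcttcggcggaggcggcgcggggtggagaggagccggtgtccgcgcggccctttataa
Procr held 1 AP-1 match, starting at -154 from the start site, and 1 half-site match at -218. F3 held 2 AP-1 matches, at -146 and -135, and no half-site match. Of all 32851 promoter windows, 7.81% held the AP-1 motif and 16.3% the half-site. These matches describe letters in the window and carry no information on binding.

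After barcodes with under 500 genes or at least 10% mitochondrial UMIs were removed, 9591 KPC barcodes (median 3141 UMIs) and 11744 PyMT barcodes (median 3978 UMIs) remained. Barcodes were then gated into 9 classes by UMIs of named marker genes, none of which is among the 7: tumor (Krt8, Krt18), fibroblast (Col1a1, Col1a2), lymphatic (Mmrn1, Prox1), pericyte (Notch3, Higd1b), venule (Ackr1, Selp), artery (Gja5, Sema3g), tip (Apln, Angpt2), capillary (Car4, Cd300lg) and other, which met no gate. The venule class held 640 barcodes in KPC and 360 in PyMT, the capillary class 1297 and 2597, the artery class 105 and 126, and the tip class 1302 and 1991. Levels are CPM, the counts of a gene per 1000000 summed UMIs of a class, with exact 95% Poisson intervals.

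The sort depleted cells that stained for CD45, EpCAM, Ter119, podoplanin or Annexin V before blood endothelial cells were collected, yet tumor, fibroblast and lymphatic barcodes remained. The gates were checked against markers they did not use. A venule list (Lrg1, Il6st, Vcam1, Sele, Nr2f2) summed to 4186 CPM in the KPC venule class and 3396 CPM in the PyMT venule class. Any other class held at most 1518 and 1289 CPM. Lrg1 made up most of both venule sums. Lrg1, Il6st and Sele were each highest in the venule class of both libraries, and Vcam1 was in KPC. In PyMT Vcam1 was higher in the artery class (193 CPM) than in the venule class (115 CPM). Nr2f2 was higher in lymphatic (236 CPM in KPC, 180 CPM in PyMT) and pericyte barcodes than in venule barcodes (143 and 120 CPM). Among blood endothelial classes Nr2f2 was highest in venules. An artery list of 7 genes summed to 6124 and 4255 CPM in the artery classes, against at most 694 and 630.2 CPM elsewhere. A tip list of 6 genes summed to 1656 CPM in the KPC tip class, against at most 722 CPM elsewhere. It separated the PyMT tip class (1215 CPM) less from other (975 CPM). Between these PyMT classes Esm1 (399 against 125 CPM) and Pgf were higher in tip cells. The list's Kcne3, Nid2, Cxcr4 and Trp53i11 were higher in other (Trp53i11 at 476 against 457 CPM). In PyMT 40.03% of tip barcodes also met the capillary gate, against 14.1% in KPC. A capillary list of 4 genes (Rgcc, Gpihbp1, Cd36, Fabp4) separated the KPC capillary class (12438 CPM, next 7696 CPM) better than the PyMT capillary class. Each of the 4 genes was highest in the capillary class in KPC, and none was in PyMT. In PyMT Rgcc and Gpihbp1 were higher in the tip class, and Cd36 and Fabp4 in the venule class. PyMT ratios over capillary cells thus rest on a class that no single gene of this list set apart. The PyMT capillary sum of 4794 CPM lay near other (4009 CPM) and below the 27 PyMT pericyte barcodes (10529 CPM). The 27 PyMT pericyte barcodes also carried 2723 CPM of pan-endothelial markers, and the 119 KPC pericyte barcodes carried 2202 CPM. The PyMT tumor class held 64.5 CPM of an epithelial list that stood at 4578 CPM in the KPC tumor class. Barcodes that met more than 1 gate were 7.59% of KPC and 10.5% of PyMT. The libraries shared 170 barcode sequences.

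Vwf, the platelet tether, was high in arteries and venules of both tumors. In KPC it stood at 269 CPM in the artery class (87 UMIs, 95% interval 215 to 332) and 251 CPM in the venule class (736 UMIs, 233 to 270.2). It stood at 58.1 CPM in the tip class (53.1 to 63.5) and 50.6 CPM in the capillary class (43.5 to 58.5). The artery and venule intervals overlapped and both lay far above those of tip and capillary cells. In PyMT arteries and venules again led, with 369 CPM in the artery class (317 to 427), 244 CPM in the venule class (219.6 to 270.3), 122 CPM in the tip class (116 to 128) and 132 CPM in the capillary class (126 to 138). The libraries differed in the capillary and tip levels, whereas the venule levels of the 2 libraries differed by a log2 ratio of 0.04 (-0.14 to 0.23).

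The log2 ratio of Vwf in the venule class over the capillary class was 2.31 in KPC (exact 95% interval 2.08 to 2.55) and 0.89 in PyMT (0.72 to 1.05). In PyMT 45.8% of venule barcodes also met the capillary gate, against 6.56% in KPC. With barcodes of several gates left out, the ratio was 1.39 in PyMT and 2.67 in KPC. With cells weighted equally it was 1.32 in PyMT and 3.53 in KPC, where the sum over a class gives deeply sequenced cells more weight. Artery over capillary was 2.41 (2.02 to 2.79) in KPC and 1.48 (1.25 to 1.71) in PyMT. Lymphatic cells carried little Vwf, at 23.2 CPM in KPC and 40.5 CPM in PyMT, so that lymphatic over venule was -3.44 (-3.79 to -3.11) and -2.59 (-2.91 to -2.28).

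The same order showed in the share of barcodes with a Vwf UMI after each barcode was thinned to 2000 UMIs. In KPC these shares were 35.8% of artery (95% Clopper-Pearson interval 24.5 to 48.5), 32.5% of venule (28.5 to 36.6) and 8.21% of capillary barcodes (6.13 to 10.7). In PyMT they were 47.7% (37.9 to 57.5), 36.5% (30.9 to 42.4) and 21.9% (20.3 to 23.6). Barcodes under 2000 UMIs were left out, so thinned shares here and below are of the deeper barcodes. In KPC 38 of 105 artery, 107 of 640 venule and 700 of 1297 capillary barcodes were left out. In PyMT 19 of 126, 75 of 360 and 230 of 2597 were. The tumor class, whose tumor cells should lack the gene, gave 0.888% in KPC (0.358 to 1.82) and 3.18% in PyMT (1.66 to 5.49). This class also held Cdh5, the endothelial cadherin, at 5.03% of the capillary level in KPC and 14.8% in PyMT. The part of endothelial RNA in its Vwf shares was not tested. Before thinning the venule shares were 56.4% and 56.7%, the capillary shares 8.33% and 40.01%, and the tumor shares 7.05% and 13.7%, at median depths of 3837 and 3486 UMIs in venule, 1879 and 4254 UMIs in capillary and 12688 and 6939 UMIs in tumor barcodes. Megakaryocyte and platelet markers (Ppbp, Pf4, Itga2b, Gp9) summed to 24.2 CPM in the KPC venule class and 23.8 CPM in its capillary class, and to 17.3 and 12.99 CPM in PyMT.

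**Figure D1:**
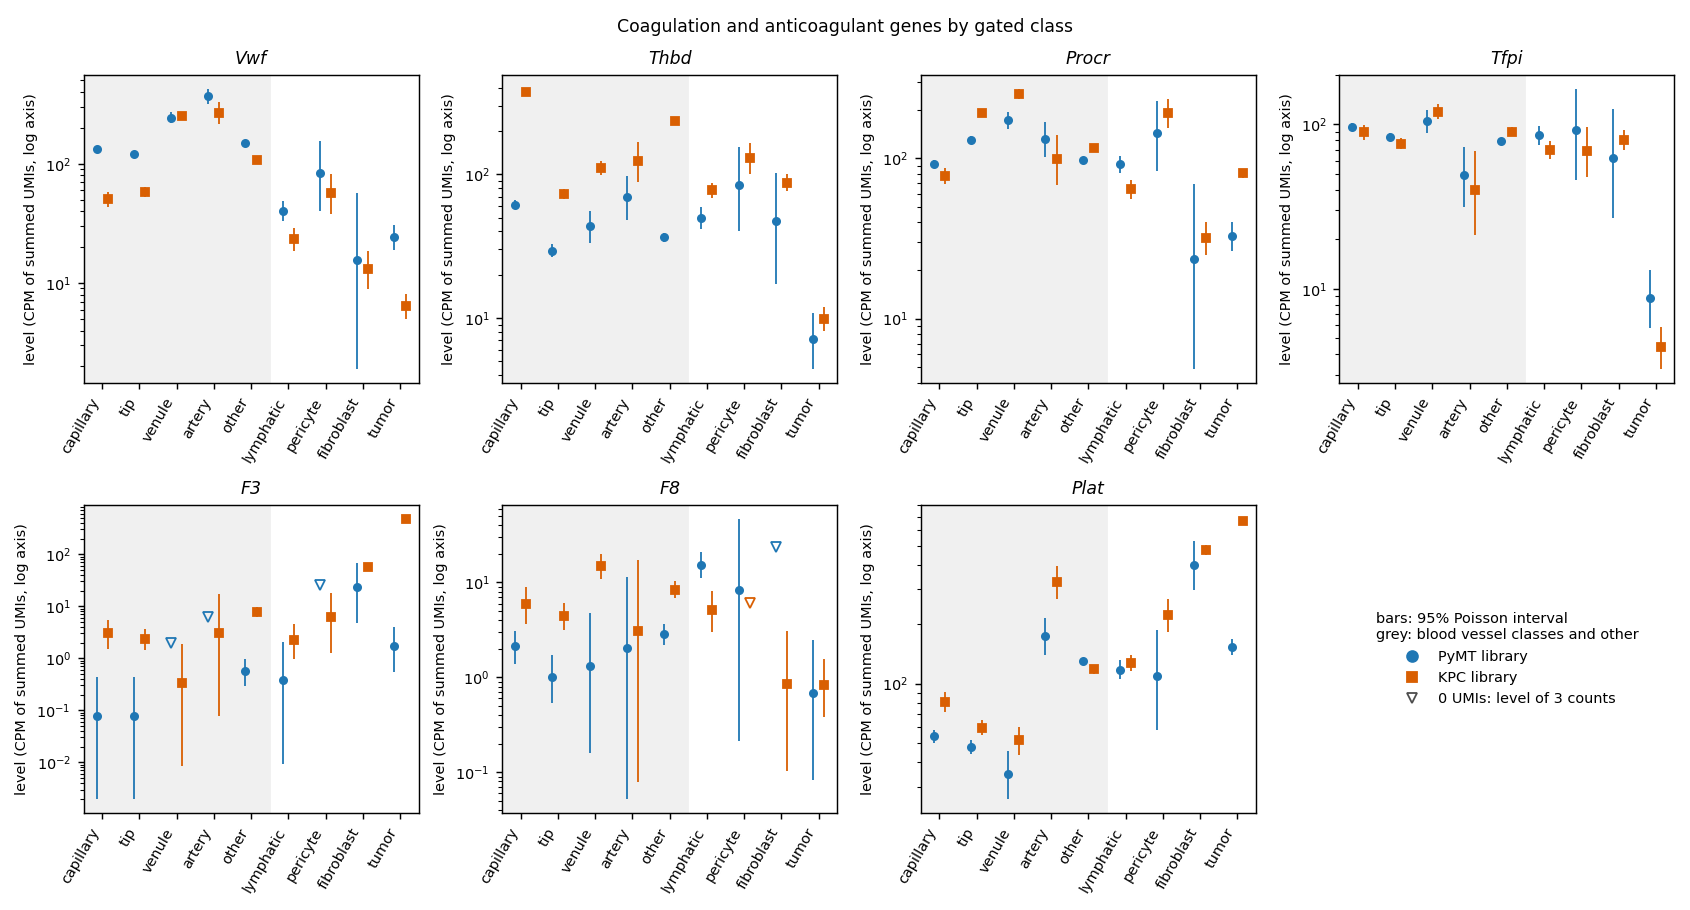
Levels of the 7 genes (CPM of summed UMIs, log axis) in 9 gated classes of the PyMT library (blue circles) and KPC library (orange squares), with 95% Poisson intervals and open triangles at the level of 3 counts where no UMI was found. Vwf was highest in arteries and venules of both libraries, Thbd was 374 CPM in KPC capillary cells against 61.3 CPM in PyMT, and F3 reached 464 CPM in the KPC tumor class.

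F8, the cofactor that Vwf carries in plasma, was sparse, and its lymphatic and venule levels stood in opposite order in the 2 libraries. In KPC it stood at 15.0 CPM in the venule class (44 UMIs, 10.9 to 20.2) and 5.09 CPM in the lymphatic class (18 UMIs, 3.02 to 8.04). The PyMT levels were 1.33 CPM in the venule class (2 UMIs, 0.161 to 4.82) and 15.4 CPM in the lymphatic class (41 UMIs, 11.03 to 20.8). The log2 ratio of lymphatic over venule was therefore -1.56 (-2.44 to -0.74) in KPC and 3.53 (1.58 to 6.62) in PyMT, and the PyMT ratio rests on 2 venule UMIs. It was 0.85 (-1.04 to 3.32) with doubled gates and 1 (-1.39 to 4.30, on 9 UMIs) after thinning before the gates, where the KPC ratio was -0.97 (-2.60 to 0.57). Capillary cells held 5.87 CPM in KPC and 2.13 CPM in PyMT. Of KPC barcodes thinned to 2000 UMIs, 2.63% of venule barcodes had an F8 UMI (1.44 to 4.37) against 0.381% of tumor barcodes (0.0786 to 1.11). Every other PyMT class stood at or below 8.40 CPM, a level set by 1 UMI in pericyte barcodes.

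F3, the initiator of clotting, was highest in the tumor and fibroblast classes of KPC and had few UMIs in any class of PyMT. The KPC tumor class stood at 464 CPM (5051 UMIs, 452 to 477) and the KPC fibroblast class at 55.9 CPM (132 UMIs, 46.8 to 66.3). The PyMT tumor class stood at 1.70 CPM (5 UMIs, 0.551 to 3.96). The 28 PyMT fibroblast barcodes stood at 23.6 CPM (3 UMIs, 4.86 to 68.8). KPC over PyMT in fibroblasts was a log2 ratio of 1.25 (-0.33 to 3.54), an interval that includes 0. KPC over PyMT in the tumor class was a log2 ratio of 8.10 (6.87 to 9.72), where 16.1% of all 11555 genes compared were higher by a log2 ratio of at least 1. Of 6 members measured there, Plat (2.13) and Procr (1.31) were higher besides F3, while Vwf (-1.91) and Tfpi (-1.001) were lower, where 12.2% of genes were lower by at least 1. The PyMT tumor class carried few epithelial marker UMIs and 461 CPM of pan-endothelial markers against 184 CPM in KPC, and the part of this in the ratios was not tested.

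Blood endothelial classes of PyMT held next to no F3. The PyMT venule and artery classes had 0 UMIs, which allows up to 2.00 and 6.15 CPM at 3 counts, and the tip and capillary classes had 1 UMI each. In KPC the venule class had 1 UMI, the tip class 20 UMIs (2.36 CPM) and the capillary class 11 UMIs (3.08 CPM). These KPC levels were 0.508% and 0.662% of the tumor class level. The keratin Krt19, a tumor marker not used in a gate, stood at 0.436% and 0.501% of its tumor class level in the same 2 classes. In other, F3 stood at 1.66% and Krt19 at 0.636% of the tumor class level. The part of tumor cell RNA in the F3 UMIs of these classes was not tested. The fibroblast level of F3 was 12.04% of the tumor class level against 1.06% for Krt19. After thinning, 42.8% of KPC tumor barcodes (39.3 to 46.3) and 9.07% of fibroblast barcodes (6.47 to 12.3) had an F3 UMI, against 0.188% of venule barcodes (0.00475 to 1.04).

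Within the KPC tumor class, 522 barcodes with Msln or Upk3b UMIs (at least 2 together) were compared with the other 272. F3 stood at 519 CPM in the first group (503 to 535) and 318 CPM in the second (298 to 339). Plat stood at 735 CPM (716 to 754) and 493 CPM (468 to 519), and Procr at 88.3 CPM (81.9 to 95.1) and 60.1 CPM (51.6 to 69.6). For each of these 3 genes the intervals of the groups did not overlap. Vwf stood at 5.43 against 9.12 CPM, Thbd at 8.21 against 14.2 CPM and Tfpi at 3.92 against 5.74 CPM, all with overlapping intervals. The first group was also deeper, with a median of 14374 UMIs against 10118, and held less Cdh5 (29.6 against 52.0 CPM).

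Thbd, the thrombin-binding receptor of the protein C pathway, was higher in KPC than in PyMT in each blood endothelial class. The KPC capillary class stood at 374 CPM (1339 UMIs, 355 to 395) and the PyMT capillary class at 61.3 CPM (779 UMIs, 57.1 to 65.8). The log2 ratio of KPC over PyMT was 2.61 (2.48 to 2.74) in capillary, 2.69 (2.58 to 2.81) in other, 1.36 (0.97 to 1.77) in venule, 1.30 (1.12 to 1.49) in tip and 0.83 (0.13 to 1.53) in artery cells. Each of these intervals lay above 0. So did that of lymphatic cells (0.64, 0.34 to 0.95). The pericyte (0.63), fibroblast (0.90) and tumor (0.46) ratios were positive with intervals that included 0. Cdh5, the endothelial cadherin, stood at 709 CPM (682 to 737) in KPC and 705 CPM (690.1 to 719) in PyMT capillary cells. Other endothelial genes differed in both directions there. Pecam1 stood at 1160 CPM (1125 to 1196) in KPC and 791 CPM (775 to 806) in PyMT. The pan-endothelial list of 6 genes, which includes both, summed to 4968 and 3205 CPM. Of all genes compared in capillary cells, 11.1% were higher in KPC by a log2 ratio of at least 1 and 4.83% were lower. Of the 6 members that reached 20 UMIs in KPC and PyMT together, Thbd and F8 (1.47, 0.57 to 2.34) were higher and Vwf (-1.38, -1.61 to -1.16) was lower. The tip class gave 3 members higher (Thbd, F8 and F3) and 1 lower (Vwf, -1.07) of 7, where 5.05% of all genes were higher and 2.44% lower. The F3 ratio in tip cells, 4.94 (2.30 to 10.31), rests on 20 UMIs against 1, the 20 UMIs being those set beside Krt19 above. With thinning before the gates it was 1.10 (-3.16 to 6.99, on 3 UMIs). The venule class gave 2 higher (Thbd and F8) and 0 lower of 6, where 4.23% and 2.09% of all genes were. F8 there went from 3.49 (1.56 to 6.58) to 1.42 (-0.81 to 4.65, on 12 UMIs) with thinning before the gates. The artery class gave 0 of 5 in either direction (6.44% and 3.06% of all genes), and other gave 3 higher and 0 lower of 7 (11.1% and 4.13%). KPC capillary barcodes were shallower, with a median of 1879 against 4254 UMIs. After thinning, 43.6% of the 597 KPC capillary barcodes kept (39.5 to 47.6) had a Thbd UMI, against 10.5% of 2367 in PyMT (9.31 to 11.8). Thinning left out 700 KPC and 230 PyMT capillary barcodes. The tumor class gave 2.03% in KPC (1.16 to 3.28) and 0.796% in PyMT (0.164 to 2.31).

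Within each library Thbd was lower in tip cells than in capillary cells. The KPC tip class stood at 72.7 CPM (67.0 to 78.6), a log2 ratio of -2.37 (-2.51 to -2.23) to capillary, and the PyMT tip class at 29.4 CPM (26.6 to 32.5), a ratio of -1.06 (-1.24 to -0.88). Of all genes, 7.5% in KPC and 1.78% in PyMT were lower in tip cells by at least 1, and 3.73% and 0.947% were higher. Among the members Thbd was lower and Procr higher past this size in KPC (1 and 1 of 7), and Thbd and F8 were lower in PyMT (2 of 6, with F8 at -1.09 on 13 tip UMIs). The venule class also held less Thbd than the capillary class, at 111 CPM in KPC (99.6 to 124), a ratio of -1.75 (-1.93 to -1.57), and 43.3 CPM in PyMT (33.4 to 55.2), a ratio of -0.50 (-0.89 to -0.13). With every barcode thinned before the gates the PyMT venule ratio was -1.60. Artery over capillary was -1.60 (-2.09 to -1.15) in KPC and 0.19 (-0.36 to 0.68) in PyMT. Under 9 alternative ways of processing, the PyMT ratio ran from -0.92 to 0.21 and kept its sign in 7. The KPC ratio ran from -2.42 to -1.54.

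Procr, which presents protein C to the thrombin and thrombomodulin complex, was highest among blood endothelial classes in venules, where Thbd was lower than in capillary cells. The KPC levels were 253 CPM in the venule class (740 UMIs, 235 to 272), 192 CPM in the tip class (183 to 202), 98.9 CPM in the artery class (67.7 to 139.7) and 77.5 CPM in the capillary class (68.6 to 87.1). The PyMT levels were 173 CPM in venule (152 to 195), 131 CPM in artery (101 to 168), 130.5 CPM in tip (124 to 137) and 92.6 CPM in capillary cells (87.3 to 98.0). The venule interval lay above those of all other blood endothelial classes in KPC and overlapped that of arteries in PyMT. Venule over capillary was 1.71 (1.5 to 1.91) in KPC and 0.90 (0.70 to 1.09) in PyMT, and tip over capillary was 1.31 (1.13 to 1.5) and 0.50 (0.39 to 0.60). After thinning, 36.6% of KPC venule barcodes (32.5 to 40.8) and 26.0% of PyMT venule barcodes (21.0 to 31.5) had a Procr UMI, against 14.7% and 16.3% of capillary barcodes. Tip shares were 29.3% in KPC (26.7 to 31.9) and 22.9% in PyMT (21.0 to 24.8), and artery shares 13.4% (6.33 to 24.0) and 23.4% (15.7 to 32.5). In PyMT the tip and artery intervals overlapped that of venules. Before thinning the shares were 56.3% of the deeper tip and 54.8% of venule barcodes in KPC, and 52.0% and 43.9% in PyMT. The KPC tumor class held 80.6 CPM of Procr and is therefore no empty comparator, while the PyMT tumor class, which also carried endothelial markers, gave 3.71% (2.04 to 6.15).

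Tfpi, the inhibitor of the tissue factor pathway, was lower in arteries than in capillary cells, while tip and venule cells lay within a log2 ratio of 0.42 of capillary cells. Its KPC levels were 119.9 CPM in venule (108 to 133), 89.5 CPM in capillary (79.9 to 99.8), 76.5 CPM in tip (70.8 to 82.7) and 40.2 CPM in artery cells (13 UMIs, 21.4 to 68.7). In PyMT the same classes stood at 105 CPM (88.9 to 122), 97.1 CPM (91.8 to 103), 84.0 CPM (79.1 to 89.1) and 49.2 CPM (24 UMIs, 31.5 to 73.2). Artery over capillary was -1.15 (-2.08 to -0.36) in KPC and -0.98 (-1.63 to -0.40) in PyMT. Venule over artery was 1.58 (0.78 to 2.5) and 1.09 (0.46 to 1.77). Fibroblasts carried it at 80.8 CPM in KPC and 62.8 CPM in PyMT, and the tumor classes at 4.41 and 8.83 CPM.

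Plat, the plasminogen activator, was, like Vwf, higher in arteries than in capillary cells. Its KPC levels were 328 CPM in artery (106 UMIs, 268 to 396), 80.5 CPM in capillary (71.5 to 90.4), 59.7 CPM in tip (54.6 to 65.1) and 51.6 CPM in venule cells (43.7 to 60.5). In PyMT these levels were 174 CPM (85 UMIs, 139 to 216), 54.0 CPM (50.03 to 58.2), 47.9 CPM (44.2 to 51.8) and 34.7 CPM (25.9 to 45.5). Artery over capillary was 2.02 (1.69 to 2.35) in KPC and 1.69 (1.35 to 2.02) in PyMT, and venule over artery was -2.67 (-3.04 to -2.30) and -2.33 (-2.86 to -1.82). Arteries and venules thus both stood above capillary and tip cells for Vwf, with venule over artery at -0.60 (-0.86 to -0.33) in PyMT. For Plat arteries were the highest of these classes and venules the lowest. The venule interval overlapped that of tip cells in both libraries. Lymphatic cells carried more Plat than venules, at 128 CPM in KPC and 118 CPM in PyMT, ratios of 1.31 (1.04 to 1.58) and 1.76 (1.34 to 2.22). Fibroblasts stood at 474 CPM in KPC and 400.4 CPM in PyMT, and the KPC tumor class at 669 CPM (654 to 684).

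Counted over the members with at least 20 UMIs in a pair of classes, the venule and capillary classes differed by a log2 ratio of at least 1 for 4 of 6 genes in KPC and for 0 of 6 in PyMT. In KPC 3 were higher (Vwf, Procr, F8), where 3.71% of all genes were, and 1 was lower (Thbd), where 6.17% were. In PyMT 5.38% of all genes were higher and 4.38% lower. The PyMT count of 0 changed with the processing. Vwf was past 1 with doubled gates (1.19), without barcodes of several gates (1.39), with thinning before the gates (1.14) and as a mean over cells (1.32). Thbd was at -1.60 with thinning before the gates. Arteries against capillaries gave 2 higher and 2 lower of 6 in KPC (all genes 6.31% and 13.6%) and 2 higher and 0 lower of 6 in PyMT (9.12% and 13.5%). Vwf and Plat were the higher pair in both. Venules against arteries gave 3 higher and 1 lower of 6 in KPC (12.9% and 8.6%) and 1 and 1 of 5 in PyMT (9.45% and 5.78%), with Tfpi higher and Plat lower in both. Lymphatic against venule cells gave 1 higher and 3 lower of 6 in KPC (10.1% and 7.38%) and 2 and 1 of 6 in PyMT (9.49% and 5.68%). Plat was higher and Vwf lower in both.

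**Figure D2:**
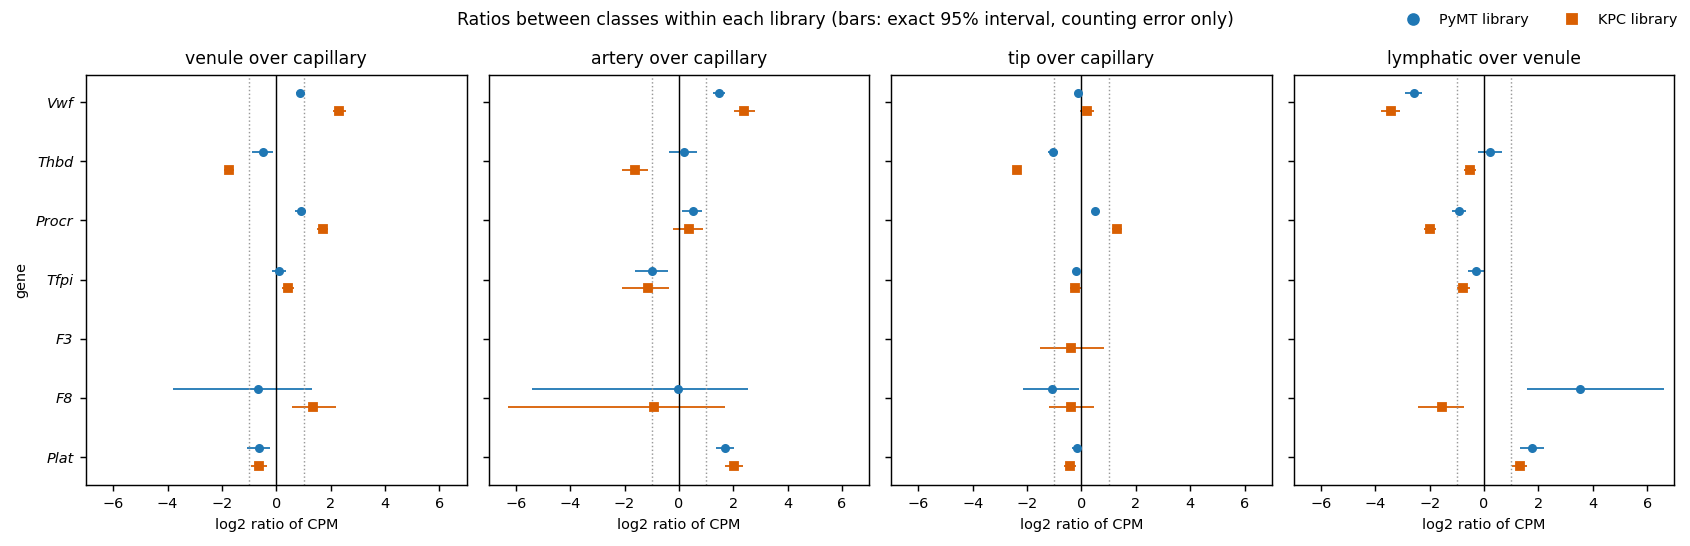
Log2 ratios of CPM between gated classes for each gene within the PyMT library (blue circles) and KPC library (orange squares), with exact 95% intervals for counting error; dotted lines mark log2 ratios of -1 and 1, and pairs with under 20 UMIs are not drawn. Vwf was above 0 for venule over capillary in both libraries (2.31 in KPC, 0.89 in PyMT), and F8 in lymphatic over venule cells pointed in opposite directions (-1.56 and 3.53).

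The venule class was not uniform in Vwf. Barcodes with Ackr1 UMIs and no Selp UMI, Ackr1 being the atypical chemokine receptor of venules, stood at 604 CPM in KPC (60 barcodes, 492 to 733) and 358 CPM in PyMT (47 barcodes, 267 to 471). Barcodes with Selp (P-selectin) alone stood at 118 CPM in KPC (189 barcodes, 98.3 to 139.9) and 126 CPM in PyMT (80 barcodes, 95.2 to 163). Barcodes with both lay between, at 304 CPM (278 to 331) and 285 CPM (252 to 322). The log2 ratio of Ackr1 alone over Selp alone was 2.36 (1.97 to 2.74) in KPC and 1.51 (0.94 to 2.08) in PyMT, where 5.41% and 4.35% of all genes were higher by at least 1. Procr followed this split in KPC (1.44, 1.03 to 1.83) and not in PyMT (0.01, -0.74 to 0.70), and Thbd did in neither. Tfpi was higher with Ackr1 alone in PyMT (0.97, 0.25 to 1.67), while its KPC interval included 0 (0.36, -0.33 to 1.004). Median depth moved with the split, at 2395.5 UMIs for Ackr1 alone and 4792 UMIs for Selp alone in KPC and 2632 and 5116.5 UMIs in PyMT, and its part in the ratio was not tested.

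**Figure D3:**
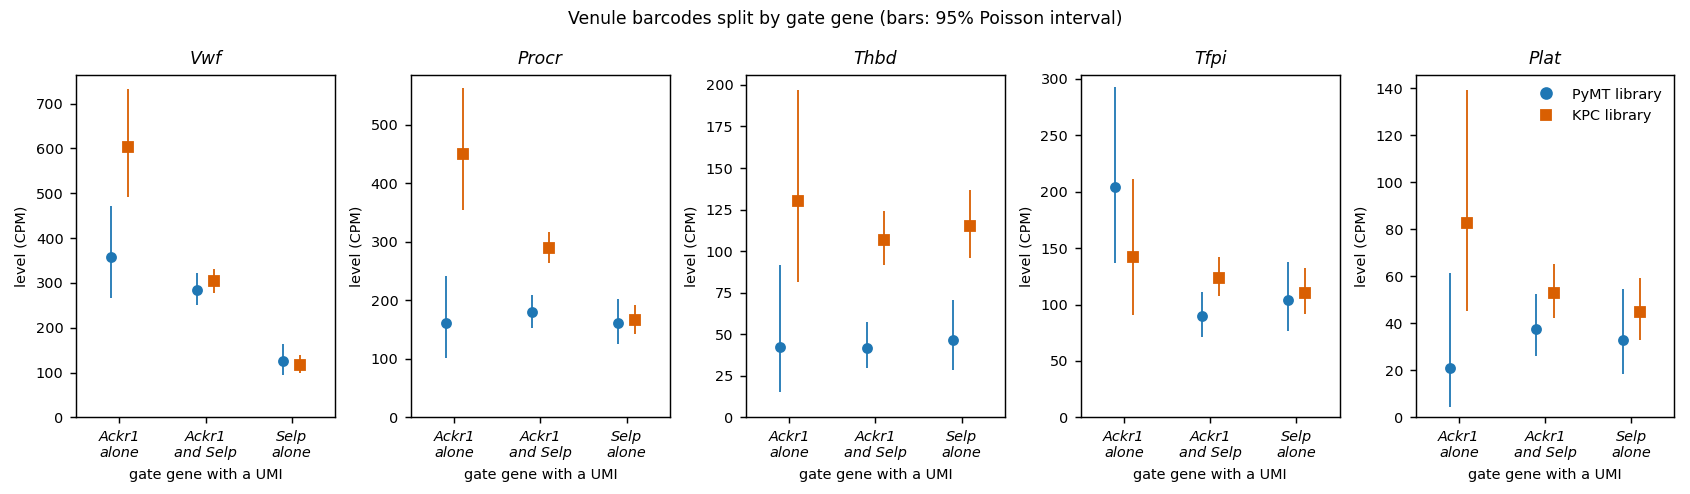
Levels (CPM) of 5 genes in venule barcodes with UMIs of Ackr1 alone, of both gate genes, or of Selp alone, in the PyMT library (blue circles) and KPC library (orange squares), with 95% Poisson intervals. Vwf fell from 604 to 118 CPM across the 3 groups in KPC and from 358 to 126 CPM in PyMT, while the intervals of Thbd overlapped within each library.

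Vwf was lower in cycling barcodes, those with at least 2 UMIs of Mki67 and Top2a together, of the venule, capillary and tip classes. In KPC venule cells it stood at 110 CPM in 88 cycling barcodes and 304 CPM in 552 others, a log2 ratio of -1.47 (-1.81 to -1.15), and in PyMT venule cells at 128 CPM in 47 and 277 CPM in 313, a ratio of -1.11 (-1.61 to -0.65). The ratio was -1.32 (-2.25 to -0.50) in KPC capillary, -0.52 (-0.71 to -0.34) in PyMT capillary, -0.58 (-0.90 to -0.28) in KPC tip and -0.24 (-0.39 to -0.09) in PyMT tip cells. In each of these classes the interval lay below 0. The KPC artery interval included 0 (-0.55, -1.61 to 0.37, on 9 cycling barcodes), as did that of KPC lymphatic cells, at 28.8 against 20.7 CPM (0.47, -0.22 to 1.15). In PyMT the ratio was -1.34 (-2.98 to -0.09, on 5 cycling barcodes) in artery and -1.06 (-1.93 to -0.28) in lymphatic cells. There 23.3% and 7.43% of all genes were lower by at least 1. In other it was -1.28 (-1.61 to -0.96) in KPC and -0.73 (-0.91 to -0.56) in PyMT, where 9.84% and 5.05% of all genes were. Cycling barcodes were deeper, with medians of 8405.5 against 3419 UMIs in KPC venule and 6696 against 3075 UMIs in PyMT venule cells, and the part of depth in these ratios was not tested. Of all genes in KPC venule cells 6.95% were lower by at least 1 in cycling barcodes, and 7.68% in PyMT venule, 12.9% in KPC capillary, 2.82% in PyMT capillary, 2.91% in KPC tip and 1.73% in PyMT tip cells. Thbd was lower in cycling KPC capillary cells, at 164 against 415 CPM (-1.33, -1.65 to -1.03), and in PyMT capillary cells stood at 55.7 against 63.0 CPM (-0.18, -0.43 to 0.07). Tfpi intervals included 0 in all of these classes. Plat was lower in cycling KPC venule (-0.97, -1.67 to -0.34), KPC tip (-0.51, -0.81 to -0.21) and PyMT tip cells (-0.46, -0.72 to -0.21). Its interval also lay below 0 in other (-0.99 in KPC, -1.02 in PyMT) and lymphatic cells of both libraries. The Plat interval included 0 in the artery, capillary and PyMT venule classes. In KPC venule cells Thbd (-1.002, -1.46 to -0.57) and Procr (-0.43, -0.69 to -0.17) were lower too. Thbd intervals also lay below 0 in other (-1.27 in KPC, -0.65 in PyMT) and KPC lymphatic cells (-1.12). So did Procr intervals in KPC tip cells (-0.28), PyMT other (-0.29) and lymphatic cells (-0.55 in KPC, -0.57 in PyMT). Procr had 0 UMIs in the 5 cycling PyMT artery barcodes, where its interval also lay below 0. In the remaining classes named here both genes had intervals that included 0.

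**Figure D4:**
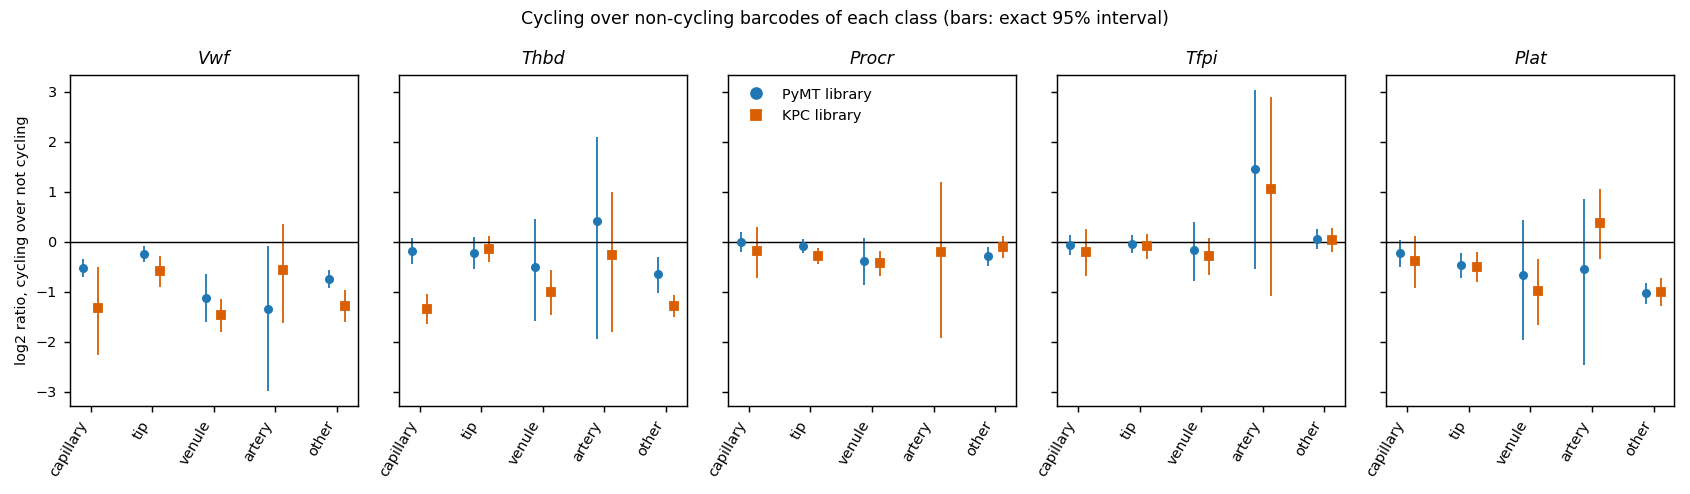
Log2 ratios of CPM in cycling over non-cycling barcodes of the blood endothelial classes and other for 5 genes, PyMT library (blue circles) and KPC library (orange squares), with exact 95% intervals; Procr in PyMT artery cells, with 0 UMIs in 5 cycling barcodes, is not drawn. Vwf lay below 0 in venule (-1.47 in KPC, -1.11 in PyMT) and capillary cells (-1.32 and -0.52) of both libraries, and Tfpi stayed near 0 outside the artery class, which had few cycling barcodes.

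The other genes of the pathway were taken as 6 lists with 50 genes in all. In venule over capillary cells, 1 of 9 genes of the Weibel-Palade body and factor secretion list, Cd63, was higher by at least 1 on the log2 scale in KPC (2.24, 2.01 to 2.48), 0 of 9 in PyMT and 0 lower in either, with median ratios of -0.12 and 0.16 against -0.05 and 0.03 over all genes. Of all genes 3.71% in KPC and 5.38% in PyMT were higher and 6.17% and 4.38% lower. Cd63 lies outside the rule for named genes and was picked after its values were seen.

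Of the 4 protease-activated receptor genes, F2rl1 and F2rl2 were higher in tip than in capillary cells, and F2rl1 and F2r in lymphatic than in venule cells, of both libraries. In tip over capillary cells F2rl1 was higher by 2.92 in KPC (0.97 to 6.02) and 2.32 in PyMT (1.21 to 3.63), and F2rl2 by 4.13 (2.88 to 5.76) and 4.49 (1.87 to 9.85). These tip levels were at most 24.4 CPM, and capillary cells held 1 to 8 UMIs of either gene. F2r stood at 0.23 (-0.04 to 0.51) in KPC and -0.06 (-0.29 to 0.16) in PyMT, and F2rl3 at 0.64 (0.32 to 0.96) and 0.29 (0.08 to 0.50). Their list, coagulation factors and thrombin receptors, gave 2 higher and 1 lower of 5 in KPC and 2 and 0 of 4 in PyMT. Of all genes 3.73% and 0.947% were higher by at least 1, and 7.5% and 1.78% were lower. In lymphatic over venule cells F2rl1 was higher, at 102 CPM in KPC and 45.7 CPM in PyMT against 2.05 and 0.667 CPM (6 and 1 venule UMIs), and the thrombin receptor F2r was higher by 1.61 (1.26 to 1.96) and 2.90 (2.23 to 3.66). F2rl3 stood at -2.01 (-2.86 to -1.23) in KPC and -0.02 (-1.11 to 1.13) in PyMT there, and F2rl2 had at most 8 UMIs in the pair. Serpine2, a thrombin inhibitor, was higher in lymphatic cells by 2.35 (2.06 to 2.65) and 5.43 (4.30 to 6.88). Stab1, a scavenger receptor, was higher by 2.33 (2.14 to 2.52) and 2.07 (1.79 to 2.37). In lymphatic over venule cells the receptor list gave 2 higher and 2 lower of 4 in KPC and 2 and 0 of 3 in PyMT. The fibrinolysis list, which holds Serpine2, gave 2 and 0 of 6 and 1 and 0 of 6. The clearance list, which holds Stab1, gave 1 and 0 of 1 and 2 and 0 of 2. Of all genes 10.1% and 9.49% were higher by at least 1, and 7.38% and 5.68% were lower.

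Genes of platelet control were lower in lymphatic than in venule cells, 5 of 5 measured in KPC and 3 of 4 in PyMT, where 7.38% and 5.68% of all genes were lower by at least 1. Entpd1, which breaks down ADP, differed by -3.10 (-3.46 to -2.77) in KPC and -3.78 (-4.26 to -3.33) in PyMT, Ptgs1 by -3.61 (-4.15 to -3.10) and -3.74 (-4.59 to -2.98), and Nt5e, which makes adenosine, by -1.21 (-2.35 to -0.14) and -1.52 (-2.25 to -0.80). The list's median was -3.10 in KPC and -2.63 in PyMT, against 0.06 over all genes in both. In arteries over capillaries Tfpi2, a Tfpi relative, was lower like Tfpi (-1.66 in KPC on 4 artery UMIs, -1.83 in PyMT on 7), and Mcfd2, which helps export factors V and VIII from the endoplasmic reticulum, was higher by 1.37 in both. The anticoagulant list, which holds Tfpi2, gave 0 higher and 1 lower of 4 in KPC and 1 and 1 of 4 in PyMT. The Weibel-Palade body and factor secretion list gave 2 higher and 2 lower of 9 in KPC and 1 and 1 of 9 in PyMT. Of all genes 6.31% in KPC and 9.12% in PyMT were higher by at least 1, and 13.6% and 13.5% were lower.

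**Figure D5:**
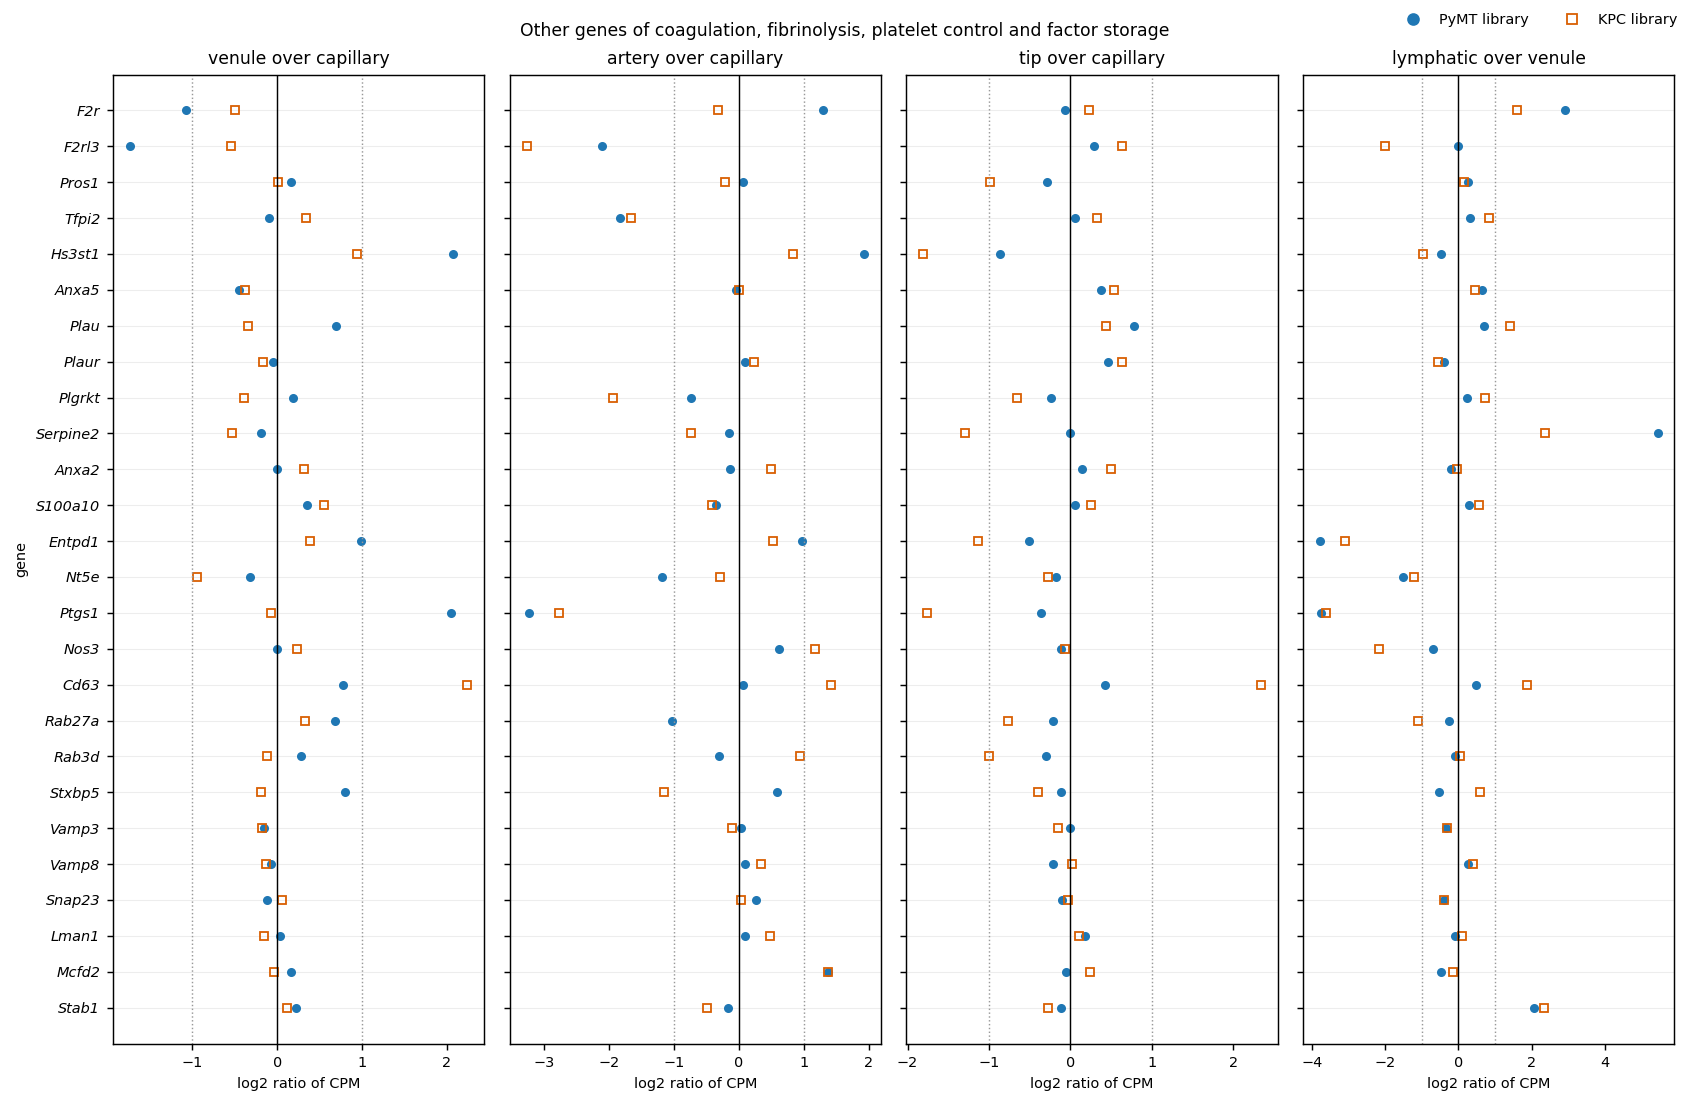
Log2 ratios of CPM between gated classes for other genes of the coagulation, fibrinolysis, platelet control and factor storage lists, PyMT library (blue circles) and KPC library (open orange squares); dotted lines mark log2 ratios of -1 and 1. Entpd1 and Ptgs1 lay below -3 in lymphatic over venule cells.

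Across the 18 points formed by 9 classes in 2 libraries, the profiles of log2(CPM + 1) most like each member's were taken from 9457 genes. Classes of a library share its depth and free RNA, so these correlations are descriptions. Vwf was nearest to Atp1b3 (Pearson r 0.95) and Nos3, the endothelial nitric oxide synthase (0.93), and Thbd to App (0.94) and Plpp3 (0.93). Procr was nearest to Stard4 (0.89), Tfpi to Grb10 (0.95), F3 to Rdh10 (0.92), F8 to Arhgef2 (0.80) and Plat to Hmgcs1 (0.87). Among the members F3 and Plat ran together (0.79), as did Thbd with Tfpi (0.70) and Vwf with Procr (0.67), while Vwf and F3 ran against each other (-0.76).

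Barcodes with UMIs of several members were also counted. Such shares rise with the share of each gene on its own. The share that independent detection would give was not computed, so these values do not show joint expression. After thinning, 37.1% of KPC venule barcodes had UMIs of at least 2 of the 7 genes, against 29.9% of artery, 24.5% of capillary and 18.6% of tip barcodes. In PyMT the highest blood endothelial share was in arteries (33.6%), followed by venule (24.2%), tip (16.1%) and capillary barcodes (15.9%). Outside the blood endothelium the KPC tumor class gave 35.3% and the 24 thinned PyMT fibroblast barcodes 37.5%. Before thinning the blood endothelial shares were 66.2% of venule, 45.7% of artery, 29.3% of capillary and 53.3% of tip barcodes in KPC, and 57.1% of artery, 52.8% of venule, 57.8% of tip and 46.8% of capillary barcodes in PyMT.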

How the data were processed

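Reads of sorted endothelial cells were processed by the authors with Cell Ranger 3.0 on mm10 (per the labels; the matrix headers name software 3.0.2), and UMI counts per gene and barcode were deposited as whole numbers without normalization. The methods name a v3 chemistry for the sort and a v2 kit for the libraries. The KPC library held 44441942 UMIs in 10236 barcodes and the PyMT library 55547926 UMIs in 12464. No doublets were removed.

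From these counts, barcodes that had 500 or more genes and a mitochondrial share of UMIs under 10% were gated in a fixed order by summed UMIs of the gate genes: at least 5 for tumor, 10 for fibroblast, 3 for lymphatic, venule and tip and 2 for pericyte, artery and capillary. A barcode went to the first gate it met. Levels are CPM with exact Poisson intervals, ratios have exact conditional binomial intervals and shares Clopper-Pearson intervals, all at 95%. UMIs amplified from the same molecule are counted once, and intervals cover counting error only. A ratio counted as higher or lower at a log2 ratio of 1 in size with at least 20 UMIs in the pair. Where a class had 0 UMIs, the level that 3 UMIs would give is printed. Thinning drew 2000 UMIs per barcode and left out shallower ones. For shares, barcodes were thinned after gating. For ratios given after thinning, the gates were applied to the thinned counts. Ratios and intervals were run on counts simulated from the Poisson model that the intervals assume. That run checks the code and cannot show how well the intervals cover spread between cells.

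Named genes were the 7 members in full, genes of the 6 lists past a log2 ratio of 1 in the same direction in both libraries (at most 4 a list), the nearest of the 3 profiles most like each member with at least 200 UMIs in each library, and the scale genes Cdh5 and Pecam1. For Vwf and Thbd alone the profile of rank 2 (Nos3 and Plpp3) was named as well. Krt19 and marker genes serve as checks. Members, lists, gates and the rule were chosen with earlier results of these data known. A gene of the lists is not reported here. Genes are counted by UMIs at the 3′ end, so levels are not compared between genes. Promoters and motifs come from RefSeq (GRCm38.p6), and positions from GENCODE M21. Alternatives covered the barcode filter, gate thresholds, barcodes of several gates, the deepest barcodes, thinning, weighting, scaling, the UMI minimum and the fold. The study's reference profiles were not used here. Python 3.11.15, numpy 2.4.6, scipy 1.17.1, pandas 2.3.3 and matplotlib 3.10.9 were used.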

Additional observations from a re-analysis of the deposited data

Results flagged for a closer look

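F8 pointed in opposite directions in the 2 libraries. The log2 ratio of lymphatic over venule cells was -1.56 in KPC (18 lymphatic and 44 venule UMIs) and 3.53 in PyMT (41 and 2 UMIs). With doubled gates the PyMT ratio was 0.85 (-1.04 to 3.32) and the KPC ratio -1.85 (-2.93 to -0.85), and after thinning before the gates they were 1 (-1.39 to 4.30) and -0.97 (-2.60 to 0.57). The difference between the libraries was not tested, since each tumor model had 1 library.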

How the results depend on the processing

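The 90 ratios of the members were recomputed under 9 alternatives, of which leaving out cycling barcodes was chosen after seeing the data. All 37 ratios past a log2 ratio of 1 in size kept their sign under every alternative that gave a value, and 679 of 800 alternative values lay within the interval of the value reported. Scaling by the median of ratios and dropping the barcode filter left all 90 there. Thinning before the gates moved 45 ratios out of their interval and left 43 within it. Doubled gates moved 27 and left 61, and the mean over cells moved 20 and left 70. No paired analysis was possible because each tumor model had 1 library and the labels give no replicate numbers.

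For venule over capillary cells in PyMT, Vwf gave 0.71 with the stricter filter (at least 1000 genes, under 5% mitochondrial UMIs), 1.19 with doubled gates, 1.39 without barcodes of several gates, 1.14 after thinning and 1.32 as a mean over cells. Thinning gave -1.60 for Thbd, -0.20 for Tfpi, 2.86 for F8 (5 UMIs) and -0.12 for Plat, and doubled gates -0.068 for Plat. In KPC, Vwf gave 1.94 with the stricter filter, 3.27 with doubled gates, 2.67 without barcodes of several gates, 2.79 without the deepest 8% of each class, 3.23 after thinning and 3.53 as a mean over cells. Thbd gave -1.46 with the stricter filter and -2.20 as a mean. Procr gave 2.07 without the deepest 8%, 2.02 after thinning and 2.26 as a mean. Tfpi gave 0.72 with doubled gates, 0.84 after thinning and 0.68 as a mean, and Plat -0.21 after thinning.

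For KPC over PyMT in capillary cells, Vwf gave -1.16 with the stricter filter, -1.99 with doubled gates, -1.65 without the deepest 8%, -1.85 after thinning and -2.07 as a mean. Thbd gave 2.41 with the stricter filter, 2.82 without the deepest 8% and 2.80 as a mean. Procr gave -0.62, -0.50 after thinning and -0.60 as a mean, the first without the deepest 8%. Tfpi gave -0.33 with doubled gates and -0.41 as a mean, F8 3.03 after thinning and Plat 1.01 with doubled gates. The cause of these shifts was not tested.

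Of the members in venule over capillary cells, 2 were higher and 3 lower in PyMT at a log2 ratio of 0.5, and 1 was lower there with no UMI minimum, against 0 and 0. In KPC 1 was higher and 0 lower at a log2 ratio of 2, and 2 were lower at 0.5 and with no minimum, against 3 and 1. Depth limits F3 and F8 most: 0 to 2 UMIs stand behind several of their class levels.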
